A study of Arabidopsis thaliana with 48 samples.

Results

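Excess light combined with heat (EL+HS) was compared with control conditions (CT) in wild-type Arabidopsis thaliana seedlings. The members of the comparison are the 3 WT EL+HS and the 3 WT CT libraries, 6 of the 48 libraries of the series, and they were chosen by genotype and treatment label alone. WT is the accession Col-0, and whole seedlings were sampled after 6 days of growth on plates of Murashige and Skoog medium without added salt. CT seedlings were at 21 °C under 50 µmol m-2 s-1 of light, and EL+HS seedlings had 1.5 h at 33 °C under 700 µmol m-2 s-1. Each group had 3 biological repeats, and a library holds RNA of a plate of many seedlings, so it averages over plants and organs. In such bulk samples, fewer cells of a type and less RNA per cell cannot be told apart.

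The series crossed WT and a line with a T-DNA insertion in RAP2.3 with 8 treatments made of excess light, heat and salt, with 3 libraries in each of 16 groups. WT seedlings under excess light alone (EL, 700 µmol m-2 s-1, 21 °C, 1.5 h) or heat alone (HS, 33 °C, 50 µmol m-2 s-1, 1.5 h), and EL+HS and CT seedlings of the insertion line, are used here where the combination is set beside them. Values are FPKM (fragments counted on a transcript, divided by its length in kilobases and by library depth), as the authors deposited them. FPKM summed to between 790178 and 813502 in the 6 libraries, replicates of a group correlated across genes at Pearson's r of 0.944 or more over the groups used, and no 2 libraries held identical values. The absolute depth cannot be read from FPKM, so no counting interval is given. The gene targeted in the insertion line was not lower there: RAP2.3 was at 64.6, 53 and 57.8 FPKM in WT CT and at 309.7, 355 and 283 FPKM in CT libraries labelled rap2.3. Their label is therefore not taken as a loss of RAP2.3, and those samples are called the libraries labelled rap2.3.

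High light drives photosynthetic electron transport faster than carbon fixation can use it, and excess energy gives rise to reactive oxygen species in the chloroplast. Plants respond with scavenging enzymes, photoprotective pigments and proteins, and fewer light-harvesting antennae. Heat unfolds proteins and frees heat shock factors, which bind arrays of the sequence GAA and its inverse in promoters and switch on heat shock proteins, the chaperones that hold or refold damaged proteins. Heat also opens stomata, whereas excess light can close them, so a seedling under both is exposed to demands that neither stress makes alone.

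Changes were tested with limma on log2(FPKM + 1) over the 24 WT libraries, and a gene was called at an adjusted p under 0.05 (Benjamini-Hochberg over all genes tested). Changes are differences of group means on this scale, on which the change of a gene with low FPKM comes out smaller than its ratio, and ± beside a change is its standard error. Values of 3 libraries are given in the order of replicates 1, 2 and 3. Of 20744 genes tested, 6499 differed between EL+HS and CT, which is 31.3% of them. 2479 were higher (12%) and 4020 lower (19.4%). This split depended on the scaling: after each library was divided by a median-of-ratios size factor, 3277 were higher (15.8%) and 3048 lower (14.7%). The median change over all genes was -0.09, and -0.01 after that rescaling. Increases reached further than decreases, since 76 of the called genes were at least 8-fold higher on this scale and 3 at least 8-fold lower. The libraries of both groups did not overlap for 3272 genes that were higher (15.8%) and 5515 that were lower (26.6%).

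EL and HS were compared with the same 3 CT libraries as EL+HS, so the changes of the 3 treatments against CT are not independent. EL differed from CT in 17.7% of the genes (10% higher, 7.7% lower) and HS in 30.8% (15% higher, 15.7% lower). EL+HS was also tested directly against each single stress. It differed from EL in 1673 genes (8.06%), 557 higher (2.69%) and 1116 lower (5.38%), or 803 and 756 after rescaling. It differed from HS in 4047 genes (19.5%), 1466 higher (7.07%) and 2581 lower (12.4%), or 1998 and 1690 after rescaling. Gene lists are described by their counts of called members, to be read against these shares of all genes.

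**Figure D1:**
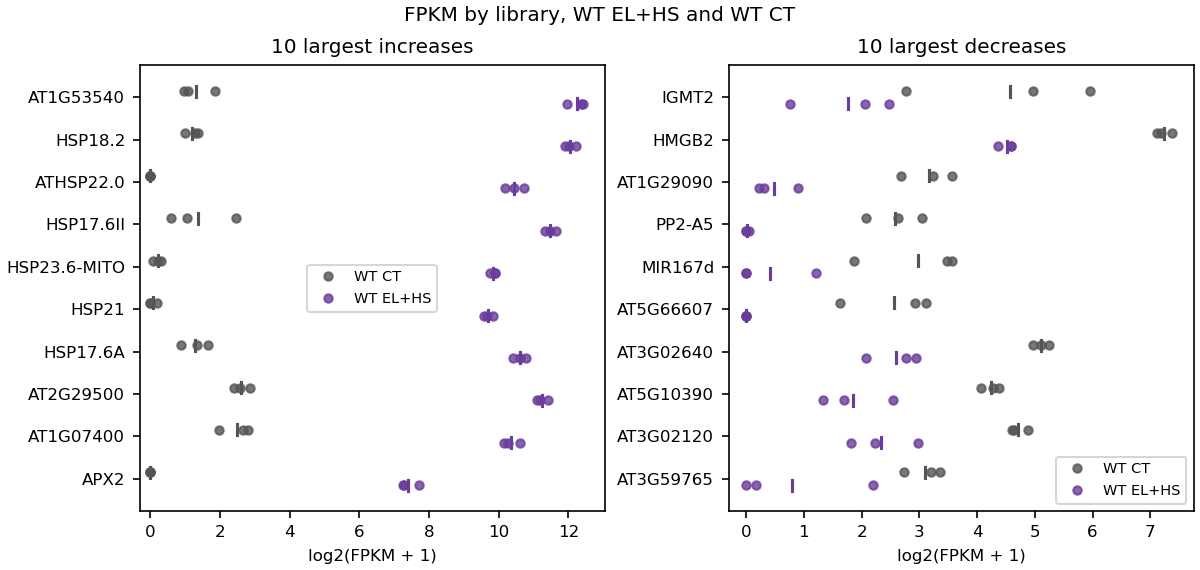
Each point is 1 library, placed at its log2(FPKM + 1), and the short bar is the mean of 3 libraries. The left panel holds the 10 largest increases under EL+HS, of which 9 are small heat shock proteins and 1 is APX2. The right panel holds the 10 largest decreases, which are smaller in size. Both were drawn from called genes that overlap no other annotated gene and have a mean of at least 5 FPKM in the higher group. Libraries that do not overlap between the groups were a further condition.

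Small heat shock proteins, which bind unfolding proteins without using ATP and keep them from clumping, held 9 of the 10 largest increases among called genes that overlap no other gene. Of the 16 in the list, 15 rose and 1 fell, with a median change of 8.82. The size of the change rests on the pseudocount for members listed near 0 in CT. Against CT, 15 also rose under EL alone (median 4.36, 1 fell) and 15 under HS alone (median 8.75, 0 fell). Cytosolic AT1G53540 was at 2.61, 0.974 and 1.13 FPKM in CT and at 5477, 5272 and 3984 FPKM in EL+HS (log2 change 10.94 ± 0.99, adjusted p 1.35e-07). HSP18.2, another cytosolic member, went from 1.42, 0.976 and 1.57 FPKM to 4752, 4108 and 3851 FPKM (log2 change 10.84 ± 0.90, adjusted p 6.1e-08). For both genes the CT libraries were all at a few FPKM or less. Every EL+HS library lay above every CT library, which was a condition for naming the largest changes.

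Members of each compartment took part. HSP17.6II, a cytosolic class II protein, rose from 4.51, 1.07 and 0.502 FPKM to 3166, 2813 and 2560 FPKM (log2 change 10.10 ± 0.86, adjusted p 8.17e-08). The plastid HSP21 was listed at 0, 0 and 0.142 FPKM in CT and at 903, 810.2 and 759 FPKM in EL+HS, with an adjusted p of 1.26e-07. The mitochondrial HSP23.6-MITO rose from 0.161, 0.246 and 0.0645 FPKM to 954, 950 and 859 FPKM (log2 change 9.64 ± 0.90, adjusted p 1.84e-07). ATHSP22.0, a protein of the endoplasmic reticulum, was listed at 0 in all 3 CT libraries and at 1691, 1373 and 1157 FPKM in EL+HS (adjusted p 1.27e-07). AT1G52560 was likewise listed at 0 in CT and stood at 170.5, 144 and 163 FPKM in EL+HS. The groups were apart by orders of magnitude for each of these genes. The other members that rose did so by between 3.36 (AT2G19310, already at 38.8, 41.1 and 40.3 FPKM in CT) and 9.31 (HSP17.6A) on the log2 scale. AT4G21870 moved the other way, from 44, 49 and 47 FPKM to 26.9, 27.1 and 26.8 FPKM (log2 change -0.77 ± 0.18, adjusted p 0.00298). Reads of near-identical family members may have been shared out among them by the authors' quantification, and HSP17.4 overlaps other annotated genes.

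Promoters of 4 genes are shown because they hold the element that heat shock factors bind, or a shorter form of it. They are the 300 bases before the annotated start in RefSeq TAIR10.1, written 5′ to 3′ on the strand of the gene. Capitals mark GAANNTTCNNGAA, the form with 3 units, and GAANNTTC, the form with 2 units that the longer one contains, both searched on either strand.
AT1G53540, chr1:19979999-19980298, plus strand: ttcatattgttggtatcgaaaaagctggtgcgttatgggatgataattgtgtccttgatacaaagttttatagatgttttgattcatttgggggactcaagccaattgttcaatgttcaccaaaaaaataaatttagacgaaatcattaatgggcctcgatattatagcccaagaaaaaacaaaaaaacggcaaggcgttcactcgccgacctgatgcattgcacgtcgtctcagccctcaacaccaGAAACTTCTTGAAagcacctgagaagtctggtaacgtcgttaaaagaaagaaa
HSP17.4, chr3:16984868-16985167, minus strand: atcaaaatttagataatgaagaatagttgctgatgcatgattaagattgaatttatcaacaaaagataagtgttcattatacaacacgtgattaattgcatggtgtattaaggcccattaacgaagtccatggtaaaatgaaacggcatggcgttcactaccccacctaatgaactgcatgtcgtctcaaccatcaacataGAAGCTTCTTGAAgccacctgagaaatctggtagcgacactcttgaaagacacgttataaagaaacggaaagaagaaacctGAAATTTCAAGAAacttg
HSFA2, chr2:11135324-11135623, plus strand: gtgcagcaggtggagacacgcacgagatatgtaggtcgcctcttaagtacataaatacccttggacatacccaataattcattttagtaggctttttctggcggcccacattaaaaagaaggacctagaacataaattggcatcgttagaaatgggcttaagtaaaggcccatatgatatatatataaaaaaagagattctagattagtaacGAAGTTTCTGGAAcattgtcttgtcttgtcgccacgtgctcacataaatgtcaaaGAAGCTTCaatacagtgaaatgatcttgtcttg
HSP21, chr4:13819972-13820271, minus strand: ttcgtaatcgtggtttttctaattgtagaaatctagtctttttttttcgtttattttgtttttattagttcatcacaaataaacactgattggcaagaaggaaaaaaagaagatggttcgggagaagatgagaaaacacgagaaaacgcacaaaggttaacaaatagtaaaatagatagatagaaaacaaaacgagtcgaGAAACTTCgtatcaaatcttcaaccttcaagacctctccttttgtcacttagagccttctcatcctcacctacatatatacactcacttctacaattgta
HSP17.4 has 2 copies of the longer element, AT1G53540 and HSFA2 have 1 each, and HSP21 has only the shorter one. HSFA2 encodes a heat shock factor and is described with its family.

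The longer element was in 103 of 19807 promoter windows of tested nuclear protein-coding genes (0.52%). It was in 30 of the 2366 windows of genes that rose (1.27%), in 7 of 61 with a log2 change of at least 3 (11.5%) and in 10 of 3946 of genes that fell (0.253%). The shorter element was in 11.2% of all windows, in 12.9% of those of genes that rose, in 24.6% of those with a log2 change of at least 3 and in 10.2% of those of genes that fell. In the small heat shock protein list, 2 of 16 windows held the longer element and 4 the shorter one, while those of HSP18.2, HSP17.6II and ATHSP22.0 held neither. These are matches of letters in a fixed window and no more than that.

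Heat shock factors are the transcription factors that read this element. Of 21 members 19 passed the filter on low FPKM, 8 rose and 1 fell, and the median change was 0.15. HSFA1A and HSFA1B, constitutive activators that start the response, were at 4.72, 5.84 and 5.97 and at 9.64, 8.43 and 8.61 FPKM in CT. In EL+HS they were at 3.78, 4.19 and 5.9 and at 6.86, 5.3 and 9.09 FPKM, so the libraries of the groups overlapped for both (adjusted p 0.271 and 0.111). Without EL+HS replicate 3, HSFA1B was called as lower. HSFA1D, of the same class, rose from 7.63, 6.47 and 6.31 FPKM to 9.02, 9.86 and 13.9 FPKM (log2 change 0.59 ± 0.16, adjusted p 0.00785), a call that was lost without EL+HS replicate 3.

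HSFA2, the factor that is itself induced by heat and extends the response, had the largest change of the family, from 0.554, 0.52 and 0.967 FPKM to 58.2, 69.7 and 32.8 FPKM (log2 change 4.97 ± 0.48, adjusted p 3.18e-07). The class B factors, which lack the activator motif of class A, followed. HSFB1 rose from 39.3, 22.5 and 25.6 FPKM to 154, 151 and 138 FPKM (log2 change 2.34 ± 0.25, adjusted p 1.09e-06). HSFB2A and HSFB2B rose as well, to 37.8, 33.2 and 33.6 and to 23.8, 28.5 and 23 FPKM, by 1.93 and 2.07 on the log2 scale. Every EL+HS library was above every CT library for these 4 genes, although HSFB2B and HSFA1B overlap other annotated genes.

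ATP-driven chaperones rose in the cytosol and in both organelles. In the HSP70 list 11 of 13 members rose and 0 fell (median 1.48), and in the list of HSP90 and ClpB proteins 9 of 10 rose and 0 fell (median 2.19). The single stresses gave similar counts: 12 and 9 rose under EL alone, and 12 and 9 under HS alone. In direct tests 4 and 5 were higher under EL+HS than under EL and 0 lower. Against HS 0 were higher, and 4 and 1 were lower. The heat-inducible cytosolic HSP70 went from 49.7, 49.5 and 59.2 FPKM to 1839, 1756 and 1594 FPKM (log2 change 5.01 ± 0.34, adjusted p 9.38e-09). HSP70B rose from 3.73, 2.7 and 3.34 FPKM to 263, 332 and 218 FPKM (log2 change 5.98 ± 0.59, adjusted p 3.45e-07), and HSP70T-2, a truncated relative, from 3, 2.98 and 3.17 FPKM to 141, 163 and 121 FPKM (log2 change 5.13 ± 0.52, adjusted p 4.73e-07). The mitochondrial HSP70 gene MTHSC70-2 rose from 21.8, 23.2 and 28.3 FPKM to 143, 147 and 148 FPKM (log2 change 2.54 ± 0.18, adjusted p 1.25e-08). Its relative MTHSC70-1 went from 39.1, 39.5 and 40.8 FPKM to 56.8, 47.3 and 56.1 FPKM without passing the test (adjusted p 0.0536). Whether these changes are unequal was not tested.

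HSP90.1, the inducible cytosolic HSP90, rose from 18.2, 20.7 and 21.9 FPKM to 950.3, 859 and 825 FPKM (log2 change 5.37 ± 0.46, adjusted p 8.48e-08). Its cytosolic relative HSP90.4 was at 12.3, 10.3 and 12.2 FPKM in CT and 11, 9.49 and 9.85 FPKM in EL+HS, with overlapping libraries (adjusted p 0.432). HSP101, the cytosolic disaggregase needed for acquired thermotolerance, rose from 6.21, 5.74 and 7.76 FPKM to 232, 262 and 186 FPKM (log2 change 4.91 ± 0.44, adjusted p 1.23e-07). Its plastid relative CLPB3 rose from 48.1, 51.1 and 52.7 to 328, 357 and 292 FPKM, and its mitochondrial relative CLPB4 from 9.02, 6.66 and 9.22 to 59.4, 66 and 66.2 FPKM. Their log2 changes were 2.66 and 2.81. HSP101 and CLPB3 overlap a neighbouring gene in the annotation.

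Co-chaperones and genes of heat memory showed the same direction, with 10 of 14 higher and 1 lower (median 1.55). Under EL alone 10 rose (median 1.35) and under HS alone 11 (median 1.43), and 0 fell in either. ROF2, a peptidyl-prolyl isomerase that binds HSP90, rose from 7.55, 8.69 and 8.54 FPKM to 922, 1001 and 895 FPKM (log2 change 6.67 ± 0.52, adjusted p 2.91e-08). HSA32, which prolongs acquired thermotolerance, rose from 8, 6.32 and 5.28 FPKM to 422, 483 and 423 FPKM (log2 change 5.89 ± 0.57, adjusted p 2.81e-07). HOP3, which links HSP70 and HSP90, rose to 420.3, 538 and 427 FPKM and the transcriptional coactivator MBF1C to 443, 453 and 266 FPKM, by 5.72 and 4.73 on the log2 scale. HSA32, HOP3 and MBF1C overlap other annotated genes. DREB2A, a factor of the drought and heat responses that lies upstream of a heat shock factor, rose from 9.05, 13.7 and 10.1 FPKM to 34.1, 36.1 and 34 FPKM (log2 change 1.60 ± 0.31, adjusted p 0.000681). It too overlaps a neighbouring gene.

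**Figure D2:**
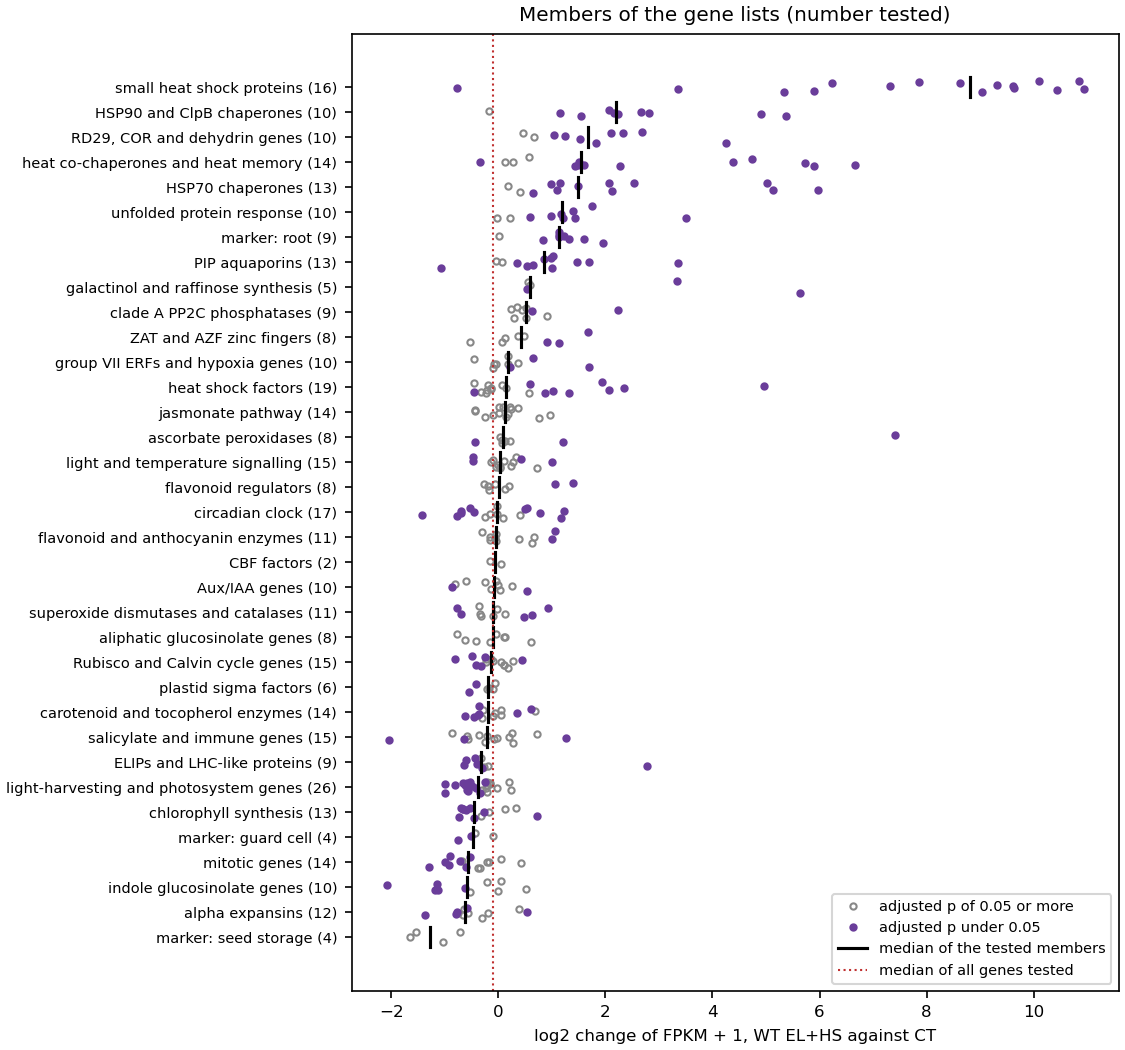
Each point is 1 member of a gene list that passed the filter, placed at its log2 change between WT EL+HS and CT, and lists are ordered by their median (bar). Small heat shock proteins stand furthest to the right at a median of 8.82, most lists of photosynthesis and growth lie left of 0, and filled points are called genes.

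The unfolded protein response of the endoplasmic reticulum, which adds folding capacity to the secretory pathway, was represented by 10 genes. 8 rose and 0 fell (median 1.19). BZIP28, a membrane-bound factor that is released to the nucleus by stress, rose from 18.2, 14.5 and 15.8 FPKM to 32.2, 34.3 and 31.7 FPKM (log2 change 0.98 ± 0.11, adjusted p 2.11e-06). BZIP60, the factor activated by splicing of its messenger, was at 34.3, 26.5 and 29.3 FPKM in CT and 35.5, 32.5 and 37.1 FPKM in EL+HS, with overlapping libraries (adjusted p 0.354). The splicing itself cannot be seen in FPKM of a whole gene.

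Among the folding proteins, calnexin CNX1 rose from 99.7, 93.6 and 115 FPKM to 382, 305 and 353 FPKM (log2 change 1.74 ± 0.15, adjusted p 1e-07). SDF2 and the DNAJ proteins ERDJ3A and ERDJ3B, partners of the chaperone BIP, rose by 1.39, 3.50 and 1.44. BIP1, which is near-identical to BIP2, went from 86.6, 80.6 and 102 FPKM to 413, 350.1 and 375 FPKM (log2 change 2.07 ± 0.16, adjusted p 2.59e-08), less far than under heat alone, where it was at 505, 567 and 662 FPKM. The EL+HS libraries of BIP1 lay below all HS libraries (log2 difference -0.60 ± 0.16, adjusted p 0.013 against HS), a call lost without EL+HS replicate 2 or HS replicate 3. 5 of the 10 genes of the list were lower under EL+HS than under HS and 0 were higher, CNX1 among them at 454, 556 and 673 FPKM under HS (log2 difference -0.68 ± 0.15, adjusted p 0.00496).

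**Figure D3:**
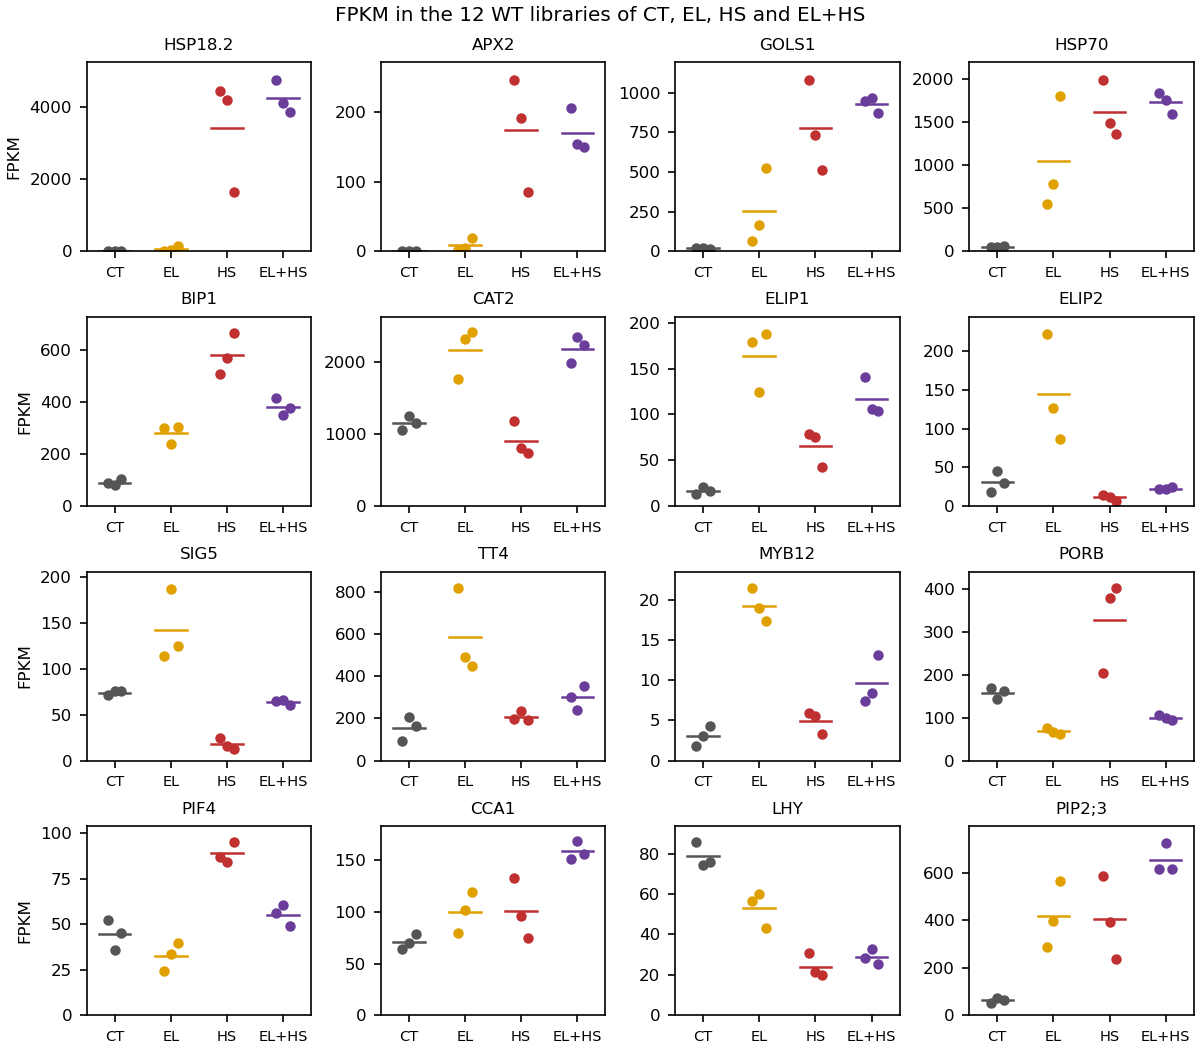
FPKM of 16 genes in the 12 WT libraries of CT, EL, HS and EL+HS (points are libraries, lines are means of 3). The panels show levels near those of heat alone (HSP18.2, APX2), near those of light alone (CAT2) and between those of the single stresses (ELIP1, SIG5, PIF4).

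Enzymes that remove hydrogen peroxide and superoxide changed member by member. Of 8 ascorbate peroxidases 2 rose and 1 fell. Cytosolic APX1 rose from 918, 859 and 957 FPKM to 2413, 1893 and 2051 FPKM (log2 change 1.21 ± 0.13, adjusted p 1.12e-06). APX2, a heat- and light-inducible cytosolic form, was listed at 0 in all CT libraries and at 207, 154 and 150.4 FPKM in EL+HS (adjusted p 2.03e-07). APX4, a chloroplast protein listed here by its name, overlaps other genes. It fell from 258, 295 and 297 FPKM to 233, 206 and 191 FPKM (log2 change -0.43 ± 0.09, adjusted p 0.00113). Whether APX4 works as a peroxidase was not examined. The EL and HS values of APX2 were 1.51, 4.65 and 18.9 and 247, 192 and 86.1 FPKM, so its EL+HS libraries all lay above those of EL (log2 difference 4.69 ± 0.69, adjusted p 0.00058 against EL).

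Of 11 superoxide dismutases and catalases 3 rose and 2 fell, the latter near the 19.4% of all genes. CAT2, the main leaf catalase that works in peroxisomes during photorespiration, rose from 1060.2, 1250 and 1158 FPKM to 1987, 2349 and 2237 FPKM (log2 change 0.92 ± 0.15, adjusted p 0.000121). Under EL it was at 1772, 2324 and 2422 FPKM and under HS at 1178, 806 and 737 FPKM, and EL+HS exceeded HS in every library (log2 difference 1.30 ± 0.15, adjusted p 1.79e-05 against HS). CAT3, another catalase, was at 417, 377 and 324 FPKM in CT and 265, 314 and 292 FPKM in EL+HS (adjusted p 0.0513), and was called as lower without CT replicate 3 or with replicate numbers as a block. CSD3, a copper/zinc superoxide dismutase of peroxisomes, rose from 52.6, 39.9 and 59 FPKM to 78.2, 68.9 and 86.8 FPKM (log2 change 0.63 ± 0.14, adjusted p 0.00179), while CCS, the chaperone that loads copper into these enzymes, fell from 50.9, 54.4 and 71.6 FPKM to 34.3, 34.9 and 31.4 FPKM (log2 change -0.78 ± 0.15, adjusted p 0.000735). The plastid CSD2 fell at an adjusted p of 0.0325 with overlapping libraries (138, 172 and 229.9 against 148, 98.1 and 86.7 FPKM), and the call was lost in 7 of 11 alternative analyses. CSD2 did not pass without CT replicate 2 or 3 or without EL+HS replicate 2 or 3, and in some of these fits the list held 1 gene called as lower. CAT2 and CSD3 overlap other annotated genes.

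The ZAT and AZF zinc finger repressors, which act downstream of reactive oxygen species, gave 3 increases among 8. ZAT6 rose from 8.67, 7.09 and 6.73 FPKM to 19.2, 19.8 and 14 FPKM (log2 change 1.13 ± 0.25, adjusted p 0.00204). ZAT7 and AZF2 were also called (1.68 and 0.91 on the log2 scale), but ZAT7 was lost without CT replicate 1, and AZF2 without EL+HS replicate 2 or 3 or without CT replicate 3. ZAT10 was at 17.5, 9.51 and 14.4 FPKM in CT and 18.6, 18.8 and 20 FPKM in EL+HS and did not pass (adjusted p 0.254).

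Photoprotection showed a mixed picture. ELIP1, an early light-induced protein of the thylakoid that binds chlorophyll when antennae are rebuilt, rose from 12.9, 20.5 and 16.1 FPKM to 141, 106 and 104 FPKM (log2 change 2.77 ± 0.24, adjusted p 1.02e-07). ELIP2, its close relative, was at 17.6, 45.1 and 29.1 FPKM in CT and 21.4, 21.8 and 24.3 FPKM in EL+HS, with overlapping libraries (adjusted p 0.44). Under EL alone ELIP2 was at 222, 127 and 87 FPKM and under HS alone at 14.7, 11.9 and 6.23 FPKM, and EL+HS was below every EL library (log2 difference -2.53 ± 0.31, adjusted p 9.53e-05 against EL). ELIP2 was singled out after its values were seen.

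Of the 9 ELIP and related proteins 5 fell, or 3 after rescaling and likewise 3 in several fits that left out 1 library (CT replicate 2 or 3 or EL+HS replicate 3). LIL3:1 and LIL3:2, which anchor enzymes of chlorophyll synthesis in the membrane, fell from 103, 119 and 121 to 80.2, 69.9 and 68.6 FPKM and from 285, 249 and 256 to 186, 174 and 158 FPKM. Their log2 changes were -0.64 and -0.60 (adjusted p 0.000314 and 2.33e-05). NPQ4, the PSBS protein that senses lumen acidity and starts heat dissipation, was at 1361, 1747 and 1668 FPKM in CT and 1576, 1401 and 1175 FPKM in EL+HS, with overlapping libraries (adjusted p 0.144). NPQ4 was called as lower without CT replicate 1 or without EL+HS replicate 1. SEP2 fell at an adjusted p of 0.0281, a call lost after rescaling, without CT replicate 2 or 3 and without EL+HS replicate 3. LIL3:1 and SEP2 overlap other genes.

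Of 14 enzymes of carotenoid and tocopherol synthesis 2 rose and 5 fell against CT. The share that rose was near the 12% of all genes. 1 rose when CT replicate 1 or 3 or any EL+HS library was left out. PSY, phytoene synthase and the entry step of the pathway, fell from 175, 175 and 196 FPKM to 136, 101 and 118 FPKM (log2 change -0.63 ± 0.13, adjusted p 0.000947). LYC, the lycopene cyclase that leads to beta-carotene, fell from 88, 83.7 and 83.5 FPKM to 63.6, 67.6 and 62.7 FPKM (log2 change -0.39 ± 0.09, adjusted p 0.00274). BETA-OHASE2, which makes zeaxanthin, rose from 38.8, 39 and 39.9 FPKM to 63.9, 63.3 and 53.7 FPKM (log2 change 0.60 ± 0.15, adjusted p 0.00381). The violaxanthin de-epoxidase NPQ1 was at 76.9, 77.9 and 77.7 FPKM in CT and 49.2, 61.6 and 58.8 FPKM in EL+HS. It fell at an adjusted p of 0.0324 but not after rescaling, nor without CT replicate 1, 2 or 3 or EL+HS replicate 1 or 3. ABA1, the zeaxanthin epoxidase, was at 259.8, 291 and 288 FPKM in CT and 225, 252 and 210 FPKM in EL+HS (adjusted p 0.0937).

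Under HS alone 10 of the 14 fell and 0 rose against CT. 8 of the 14 were higher in EL+HS than in HS, 0 were lower, and 4 were below EL. ABA1 was at 160.4, 118 and 105 FPKM under HS, below each EL+HS library (log2 difference 0.86 ± 0.13, adjusted p 0.00021 against HS). NPQ1 was at 35.6, 28.9 and 27.1 FPKM under HS (log2 difference 0.87 ± 0.16, adjusted p 0.00107). PSY, LYC, BETA-OHASE2 and NPQ1 overlap other annotated genes.

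Flavonoid synthesis supplies light-screening pigments. Of 11 enzymes 8 rose against CT under EL alone, 2 rose under EL+HS (1 without CT replicate 1 or EL+HS replicate 1 or 3) and 0 fell, and 8 were lower in EL+HS than in EL. TT4, chalcone synthase and the first committed step, rose from 94.4, 205 and 164 FPKM to 302, 240 and 356 FPKM (log2 change 1.00 ± 0.26, adjusted p 0.00549), with EL at 818, 491 and 449 FPKM. Its EL+HS libraries were all below those of EL (log2 difference -0.93 ± 0.26, adjusted p 0.0291 against EL), a call lost without EL replicate 1 or EL+HS replicate 1 or 2. TT5, chalcone isomerase, was at 28.7, 30.8 and 37.1 FPKM in CT, 213, 88.5 and 71.4 FPKM in EL and 48.7, 35.5 and 42.7 FPKM in EL+HS, and did not pass against CT (adjusted p 0.307). F3H, the hydroxylase that follows, was at 20.1, 32.4 and 30.8 FPKM in CT and 43.7, 35.4 and 50.1 FPKM in EL+HS (adjusted p 0.192), against 287, 94.9 and 69.4 FPKM in EL.

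FLS1, flavonol synthase, was called (log2 change 1.06 ± 0.36, adjusted p 0.0313), but not without CT replicate 1 or EL+HS replicate 1 or 3. MYB12, which activates the early flavonol genes, rose from 1.82, 3.05 and 4.35 FPKM to 7.42, 8.38 and 13.1 FPKM (log2 change 1.39 ± 0.25, adjusted p 0.000301), below its EL values of 21.4, 19 and 17.4 FPKM (log2 difference -0.96 ± 0.25, adjusted p 0.0215 against EL). The latter call was lost without EL replicate 1 or 2 or EL+HS replicate 1 or 2. Of the 8 flavonoid regulators 2 rose and 0 fell against CT. TT4 and F3H overlap other annotated genes.

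Nuclear genes of the light-harvesting antennae and photosystems were lower. Of 26, 15 fell and 0 rose (median -0.39), or 12 fell after rescaling. LHCB1.3, the most abundant of those named, fell from 15432, 14298 and 15643 FPKM to 8968, 9715 and 7296 FPKM (log2 change -0.81 ± 0.12, adjusted p 4.55e-05). LHCB1.1 fell from 3492, 4148 and 4064 FPKM to 2204, 2089.7 and 1603 FPKM (log2 change -1.0 ± 0.13, adjusted p 8.04e-06) and LHCB2.3 from 793, 880 and 838 FPKM to 431, 479.5 and 359.7 FPKM (log2 change -0.99 ± 0.24, adjusted p 0.00341). For each of these every EL+HS library was below every CT library. LHCB1.4 was called as lower (adjusted p 0.0255) but not after rescaling, nor without CT replicate 1 or EL+HS replicate 1 or 3. LHCB1 copies are near-identical, so the division of reads among them is uncertain, and LHCB1.3 and LHCB2.3 overlap other genes. Against EL alone, where 24 of the 26 fell, 5 were higher under EL+HS and 0 lower.

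In the Calvin cycle 5 of 15 genes fell and 1 rose. The number that fell was 2 after rescaling, and 2 when CT replicate 2 or 3 or EL+HS replicate 3 was left out. After rescaling the share that fell was thus no larger than the 14.7% of all genes. The share that rose was below the 12% of all genes. PRK, phosphoribulokinase, which regenerates the CO2 acceptor, fell from 1074, 1078 and 1074 FPKM to 747, 777 and 763 FPKM (log2 change -0.50 ± 0.09, adjusted p 0.000481). GAPA-2, a subunit of the plastid glyceraldehyde dehydrogenase, fell from 1107, 1319 and 1383 FPKM to 812, 715 and 632 FPKM (log2 change -0.82 ± 0.13, adjusted p 8.14e-05). FBA1, a plastid aldolase, rose from 642, 822 and 772 FPKM to 1083, 1055 and 896 FPKM (log2 change 0.44 ± 0.13, adjusted p 0.0108), a call lost without CT replicate 1. Rubisco small subunits RBCS1A and RBCS1B were called as lower (adjusted p 0.0178 and 0.0399), RBCS1B with overlapping libraries. Neither passed after rescaling or when CT replicate 2 or 3 or EL+HS replicate 3 was left out, nor did RBCS1B without EL+HS replicate 2. RCA, Rubisco activase, which is heat labile as a protein, was at 5427, 6257 and 6082 FPKM in CT and 7197, 7734 and 6674 FPKM in EL+HS (adjusted p 0.0721). 6 of the 15 were higher under EL+HS than under HS and 0 lower, with FBA1 at 645, 544 and 504 FPKM in HS (log2 difference 0.84 ± 0.13, adjusted p 0.000199 against HS).

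Chlorophyll synthesis fell in 8 of 13 tested genes and rose in 1 (median -0.45). CHLI1 and CHLI2, the ATPase subunits of magnesium chelatase, fell from 308, 331 and 369 to 264, 205 and 173 FPKM and from 56.6, 49.7 and 50.3 to 34.9, 26.6 and 31.8 FPKM (-0.67 and -0.73 on the log2 scale). CHLG, chlorophyll synthase, fell from 115, 127 and 141 FPKM to 92.4, 74.1 and 68.7 FPKM (log2 change -0.70 ± 0.11, adjusted p 8.46e-05). The light-dependent oxidoreductases PORB and PORC went in opposite directions. PORC rose from 104, 105 and 93.6 FPKM to 187, 154 and 162 FPKM (log2 change 0.72 ± 0.12, adjusted p 0.000102), and PORB fell from 169, 143 and 163 FPKM to 106, 98.5 and 94.7 FPKM (log2 change -0.66 ± 0.19, adjusted p 0.0107). PORB was at 205, 379 and 403 FPKM under HS and 76.8, 67.5 and 61.2 FPKM under EL, so the combination was far below heat alone (log2 difference -1.65 ± 0.19, adjusted p 1.48e-05 against HS). Of the list, 7 genes were lower in EL+HS than in HS and 1 was higher. PRK, CHLI1, CHLI2, PORB, PORC and RCA overlap other annotated genes.

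Plastid sigma factors, which direct transcription of the chloroplast genome, fell in 2 of 6 cases. SIG2 went from 68.2, 67 and 65.4 FPKM to 54.2, 49.4 and 46.3 FPKM (log2 change -0.42 ± 0.09, adjusted p 0.00125) and SIG6 from 62.9, 66.6 and 69.7 FPKM to 45.6, 46.3 and 43 FPKM (log2 change -0.55 ± 0.10, adjusted p 0.000287). SIG5, a light- and stress-responsive member, was at 70.9, 75.1 and 75.4 FPKM in CT and 64.3, 66.3 and 60.2 FPKM in EL+HS (adjusted p 0.437). Yet SIG5 was at 114, 187 and 125 FPKM under EL and 24.9, 16 and 12.8 FPKM under HS. The EL+HS libraries were below all of EL (log2 difference -1.11 ± 0.19, adjusted p 0.00178). They were above all of HS (log2 difference 1.82 ± 0.19, adjusted p 7.02e-06). The call against EL was lost in a fit on the libraries of that comparison alone.

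In the circadian clock 5 of 17 genes rose and 6 fell. The sample labels used here give no time of day of sampling, so its part in these changes was not tested. CCA1 and LHY, paralogous morning factors that repress evening genes and usually peak together, moved apart. CCA1 rose from 63.6, 69.8 and 79 FPKM to 151, 169 and 156 FPKM (log2 change 1.16 ± 0.18, adjusted p 7.89e-05), while LHY fell from 85.9, 74.6 and 75.9 FPKM to 28.5, 33 and 25.2 FPKM (log2 change -1.42 ± 0.19, adjusted p 1.1e-05). The groups did not overlap for either. CCA1 was higher in EL+HS than under EL (79.7, 102 and 119 FPKM) and HS (133, 95.9 and 75 FPKM), by 0.67 and 0.68 on the log2 scale (adjusted p 0.0265 and 0.0133). The difference from EL was lost without EL replicate 1 or 2 or EL+HS replicate 2 or 3, and that from HS without EL+HS replicate 2 or HS replicate 3. LHY was lower than under EL (56.5, 60 and 43 FPKM, log2 difference -0.85 ± 0.19, adjusted p 0.00785) and at 30.6, 21.4 and 20 FPKM under HS. In fits on the libraries of a comparison alone, neither CCA1 difference nor that of LHY from EL was called. PRR9, the pseudo-response regulator that follows CCA1, rose from 18.1, 18.9 and 17.1 FPKM to 44.5, 44.7 and 41.6 FPKM (log2 change 1.23 ± 0.18, adjusted p 3.38e-05). LNK1, a coactivator of evening genes, rose by 0.78 (adjusted p 1.63e-05) and overlaps a neighbour.

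Of 15 genes of light and temperature signalling 2 rose and 2 fell, or 4 and 1 after rescaling. Before rescaling the share that rose was near the 12% of all genes, and the share that fell was below their 19.4%. HY5, the factor that promotes light-grown development, rose from 12.6, 17.8 and 22.5 FPKM to 36.4, 31.8 and 38.3 FPKM (log2 change 1.00 ± 0.21, adjusted p 0.00126). COP1, the ubiquitin ligase that targets HY5, fell from 26.2, 25.6 and 30.3 FPKM to 19.1, 21.2 and 18.2 FPKM (log2 change -0.47 ± 0.10, adjusted p 0.00115). The blue light receptor CRY1 fell from 84, 74.4 and 77.9 FPKM to 59.2, 60.1 and 51.2 FPKM (log2 change -0.47 ± 0.12, adjusted p 0.00471), not so after rescaling. PIF7 rose by 0.43 (adjusted p 0.00434) and overlaps a neighbour. PIF4, a factor that drives elongation in warmth, was at 52.2, 35.6 and 45.4 FPKM in CT and 56.2, 60.8 and 49 FPKM in EL+HS, with overlapping libraries (adjusted p 0.0947). It was called as higher after rescaling and without CT replicate 1. It stood at 24.3, 33.4 and 39.8 FPKM under EL and 87.1, 84.3 and 95.5 FPKM under HS. EL+HS lay above EL (log2 difference 0.77 ± 0.14, adjusted p 0.0029) and below HS (log2 difference -0.68 ± 0.14, adjusted p 0.00359). The call against EL was lost in a fit on the libraries of that comparison alone.

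Of 14 mitotic genes 7 fell and 0 rose (median -0.57). CYCB1;2, a cyclin of the entry into mitosis, fell from 9.95, 11.1 and 9.46 FPKM to 3.84, 4.35 and 2.57 FPKM (log2 change -1.30 ± 0.20, adjusted p 7.39e-05). CDKB2;1, a mitotic kinase that overlaps a neighbouring gene, fell by 0.54 on the log2 scale (adjusted p 0.021), not so without EL+HS replicate 1 or CT replicate 2 or 3. Among 12 alpha expansins, which loosen cell walls, 4 fell and 1 rose. EXPA1 fell from 194, 213 and 237 FPKM to 73.4, 95.5 and 78.1 FPKM (log2 change -1.38 ± 0.14, adjusted p 4.65e-07). The calls of EXPA3, EXPA5 and EXPA11 (adjusted p 0.0222, 0.035 and 0.0467) were all lost without EL+HS replicate 2, which left 1 expansin called as lower, and the call of the expansin that rose was lost without CT replicate 1 or 3 or any EL+HS library. EXPA3 was also lost without CT replicate 3 or EL+HS replicate 3, EXPA5 without any CT library or EL+HS replicate 3, and EXPA11 without CT replicate 1 or 2 or EL+HS replicate 1. EXPA11 was lost as well with a pseudocount of 0.1 and after rescaling. Without the filter on low FPKM EXPA5 and EXPA11 were lost, and on the compared libraries alone EXPA3 and EXPA11. Of 10 tested Aux/IAA repressors of auxin signalling, IAA4 fell from 42.9, 43 and 40.4 FPKM to 20.7, 24.7 and 22.7 FPKM (log2 change -0.86 ± 0.15, adjusted p 0.000193), and IAA17 rose from 54.6, 56 and 56.7 FPKM to 79, 85.8 and 79.1 FPKM (log2 change 0.53 ± 0.12, adjusted p 0.00189). They were the only calls of this list, and neither share was above that of all genes (12% higher and 19.4% lower).

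Among called genes that met the naming conditions, which include libraries that do not overlap, the largest decreases in size included chromatin genes. The 3 genes called at least 8-fold lower did not meet these conditions. HMGB2, a high mobility group protein of chromatin, fell from 166, 145 and 138 FPKM to 23.1, 19.6 and 23 FPKM (log2 change -2.72 ± 0.30, adjusted p 1.19e-06). AT5G10390, a histone gene, fell from 19.9, 15.8 and 18.4 FPKM to 4.84, 1.52 and 2.24 FPKM (log2 change -2.39 ± 0.41, adjusted p 0.000194). AT3G02120, a hydroxyproline-rich glycoprotein gene, and AT3G02640, of unknown function, fell by 2.37 and 2.51. The cysteine protease gene AT1G29090 fell from 10.9, 5.44 and 8.41 FPKM to 0.246, 0.165 and 0.865 FPKM (log2 change -2.69 ± 0.37, adjusted p 1.79e-05). PP2-A5, a phloem lectin gene, was at 7.28, 3.2 and 5.2 FPKM in CT and 0, 0.0378 and 0 FPKM in EL+HS (adjusted p 5.38e-06).

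Low and short transcripts were among these decreases as well. The precursor of microRNA 167d, MIR167d, was at 10.2, 2.65 and 10.8 FPKM in CT and 1.32, 0 and 0 FPKM in EL+HS (adjusted p 0.0022). The non-coding AT3G59765 was at 8.17, 9.26 and 5.63 and 3.59, 0.126 and 0 FPKM (adjusted p 0.000398). AT5G66607 was at 6.61, 2.1 and 7.68 FPKM in CT and listed at 0 in all EL+HS libraries, a call lost without CT replicate 1 or 3. FPKM of short transcripts rest on few fragments.

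The histone genes were counted as a group after the values above had been seen. Of 29 tested genes annotated as histone superfamily proteins, which package DNA, 19 fell and 0 rose (median -0.83). Their summed FPKM was 2229, 2267 and 2338 in CT and 1221, 1166 and 1197 in EL+HS. The EL libraries held 2013, 1598 and 1369 and the HS libraries 1198, 1291 and 1566. The EL+HS libraries lay close together and below every CT and EL library.

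**Figure D4:**
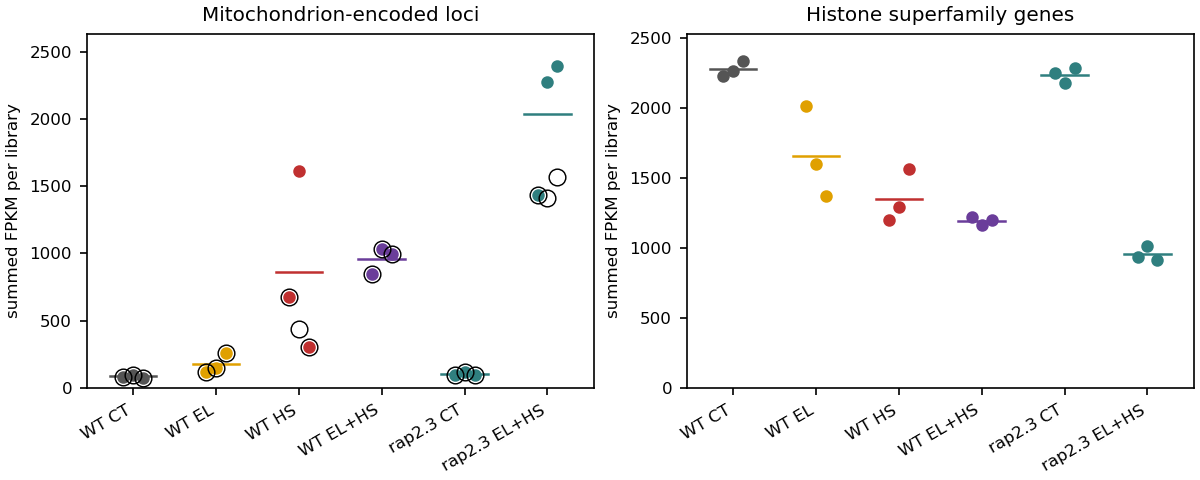
Summed FPKM of all mitochondrion-encoded loci (left) and of genes annotated as histone superfamily proteins (right) in each library, with means as lines. Open circles show the mitochondrial sum without ATMG01380, a locus above 0 in 1 HS and 2 rap2.3 EL+HS libraries of those plotted. The mitochondrial sum was 844 to 1035 in WT EL+HS and 77.8 to 99.9 in WT CT, and the histone sum 1166 to 1221 and 2229 to 2338.

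Aquaporins of the plasma membrane (PIPs), the channels that set the water conductance of cells, rose in 10 of 13 cases and fell in 1 (median 0.85). PIP2;3 rose from 53, 71.2 and 64.2 FPKM to 616, 724 and 615 FPKM (log2 change 3.36 ± 0.26, adjusted p 2.59e-08). PIP2;1 rose from 1059, 965 and 1063 FPKM to 2612, 3104 and 2806 FPKM (log2 change 1.46 ± 0.15, adjusted p 4.65e-07) and PIP2;2 from 202, 251 and 236 FPKM to 602, 769 and 866 FPKM (log2 change 1.69 ± 0.18, adjusted p 1.11e-06). PIP2;2 and PIP2;3 are near-identical neighbours, and the division of reads between them is uncertain. PIP2;8 fell from 11.6, 13.3 and 14.8 FPKM to 8.28, 5.85 and 3.85 FPKM (log2 change -1.07 ± 0.23, adjusted p 0.0016). 5 PIPs were higher in EL+HS than in HS and 3 higher than in EL, and 0 were lower than either.

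Dehydrins and other late stress proteins of the RD29 and COR group, which protect membranes and proteins when water is scarce, rose in 8 of 10 cases (median 1.67). KIN1 rose from 0.535, 1.51 and 0.645 FPKM to 40, 28.4 and 36.2 FPKM (log2 change 4.26 ± 0.29, adjusted p 1.14e-08). ERD10, a dehydrin, rose from 13.4, 16.7 and 10.6 FPKM to 94.8, 85.9 and 95.1 FPKM (log2 change 2.69 ± 0.18, adjusted p 9.38e-09). COR47 and KIN2 rose to 301, 402 and 379 and to 292, 212 and 222 FPKM, by 2.33 and 2.11. RD29A, a common reporter of dehydration and abscisic acid, rose from 8.04, 8.35 and 4.8 FPKM to 25.5, 22.5 and 17.8 FPKM (log2 change 1.53 ± 0.32, adjusted p 0.00123), below its EL values of 61.2, 53.2 and 39.5 FPKM (log2 difference -1.18 ± 0.32, adjusted p 0.0274 against EL). The call against EL was lost without EL replicate 1 or 2 or EL+HS replicate 2 or 3. 7 of the 10 were higher in EL+HS than in HS. The CBF factors, known activators of this group in cold, gave 0 calls among 2 tested.

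GOLS1, the heat-responsive galactinol synthase that starts raffinose synthesis, rose from 18.7, 18 and 16.5 FPKM to 949.6, 965 and 871 FPKM (log2 change 5.63 ± 0.48, adjusted p 8.58e-08). GOLS2, its drought-responsive relative, rose from 0.315, 0.164 and 0.717 FPKM to 18, 11.3 and 10.6 FPKM (log2 change 3.34 ± 0.37, adjusted p 1.51e-06). RS5, raffinose synthase, was called (log2 change 0.53 ± 0.19, adjusted p 0.0403) but not without CT replicate 1 or 2, EL+HS replicate 1 or EL+HS replicate 3. Among 9 clade A phosphatases that switch off abscisic acid signalling, HAI1 rose from 1.65, 0.771 and 0.154 FPKM to 10.1, 7.65 and 4.91 FPKM (log2 change 2.24 ± 0.42, adjusted p 0.000454). ABI1 rose from 26.2, 21.9 and 24.6 FPKM to 33.2, 37.6 and 42.9 FPKM (adjusted p 0.0339), a call lost without any CT library or without EL+HS replicate 2 or 3. The list held 1 call without any CT library or without EL+HS replicate 3, and 4 after rescaling. HAB1, also of this clade, was at 36.9, 41 and 39.4 FPKM in CT and 49.2, 67.1 and 54.5 FPKM in EL+HS (adjusted p 0.12). GOLS1 and ABI1 overlap other genes.

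Jasmonate genes gave 0 calls against CT among 14 tested. Against the same CT libraries 7 of them rose under EL and 3 under HS. In the direct tests 2 were lower and 0 higher in EL+HS than in EL, and 1 was higher and 1 lower than in HS. LOX2, the plastid lipoxygenase at the start of jasmonate synthesis, was at 100.3, 79.1 and 55.9 FPKM in CT and 59.2, 58.2 and 74.4 FPKM in EL+HS, with overlapping libraries (adjusted p 0.386). It was lower than under EL (106, 117 and 171 FPKM, log2 difference -1.0 ± 0.22, adjusted p 0.00748). It was also lower than under HS (148, 104 and 103 FPKM, log2 difference -0.87 ± 0.22, adjusted p 0.00952). The difference from EL was lost in a fit on the libraries of that comparison alone. AOS, the next enzyme, was at 119, 76.3 and 88.7 FPKM in CT and 78, 60.3 and 67.8 FPKM in EL+HS (adjusted p 0.141). MYC2, the master factor of the pathway, was at 12, 6.67 and 7.88 and 7.51, 9.83 and 13 FPKM (adjusted p 0.697), with overlapping libraries, and overlaps a neighbour in the annotation.

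Of 15 tested genes of salicylate synthesis and immunity 2 fell and 1 rose, both below the shares of all genes (19.4% lower and 12% higher). The number that fell was 1 without CT replicate 1 or 3 and 4 without CT replicate 2. CBP60G, an activator of salicylate synthesis, was at 17.6, 2.31 and 4.7 FPKM in CT and 1.38, 0.228 and 0.719 FPKM in EL+HS (log2 change -2.04 ± 0.47, adjusted p 0.00255). ICS1, isochorismate synthase, fell from 7.98, 4.98 and 7.51 FPKM to 3.52, 4.52 and 3.72 FPKM (log2 change -0.65 ± 0.19, adjusted p 0.0144), not so without CT replicate 1 or 3. WRKY70, which stands between salicylate and jasmonate signalling, rose from 2.78, 0.987 and 1.06 FPKM to 3.4, 4.72 and 7.7 FPKM (log2 change 1.27 ± 0.30, adjusted p 0.00307). Among 10 genes of indole glucosinolates, defence compounds made from tryptophan, 5 fell and 0 rose. CYP79B3 and CYP83B1, early steps of the pathway, fell from 76.4, 35.1 and 43.2 to 25.1, 19.9 and 20.1 FPKM and from 126, 58.5 and 95.1 to 42.8, 33 and 40.2 FPKM (-1.14 and -1.19 on the log2 scale).

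CT replicate 1 was high for several of these defence genes. IGMT2, a methyltransferase that modifies indole glucosinolates, was at 61.3, 5.81 and 30.4 FPKM in CT and 3.17, 0.683 and 4.57 FPKM in EL+HS (log2 change -2.80 ± 0.56, adjusted p 0.000896). CYP81F2, the hydroxylase before it, was at 55.9, 3.59 and 20.3 FPKM in CT and 5.26, 1.15 and 4.33 FPKM in EL+HS with overlapping libraries (adjusted p 0.0117), and was not called without CT replicate 1 or EL+HS replicate 2. CYP79B2 was at 85.6, 26.9 and 56.8 and 31.2, 18.5 and 20.5 FPKM (adjusted p 0.0274) and was not called without CT replicate 1 or 3 or EL+HS replicate 2 or 3. Without CT replicate 1 or without EL+HS replicate 2 the list held 2 genes called as lower. MYB51, the regulator of the pathway, was at 17.4, 4.91 and 11.2 FPKM in CT and 6.86, 4.69 and 8.66 FPKM in EL+HS (adjusted p 0.161), and was called as lower without CT replicate 2. The aliphatic glucosinolate list gave 0 calls among 8 genes.

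Group VII ethylene response factors and genes of the hypoxia response rose in 3 of 10 cases, or 1 without CT replicate 1 or without EL+HS replicate 3. RAP2.3 was at 64.6, 53 and 57.8 FPKM in CT and 52.9, 61.3 and 48.7 FPKM in EL+HS, with overlapping libraries (adjusted p 0.634). RAP2.2 was called (log2 change 0.21 ± 0.07, adjusted p 0.0331) but not without CT replicate 1 or 2 or EL+HS replicate 3. ADH1, alcohol dehydrogenase, which overlaps another gene, rose from 2.08, 4 and 2.73 FPKM to 6.02, 8.85 and 27.7 FPKM (log2 change 1.70 ± 0.41, adjusted p 0.00341). EL+HS replicate 3 was far above the other two there.

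Markers of organs shifted between the groups. Of 9 root markers 8 were called higher (median 1.13), or 5 without EL+HS replicate 3, and their summed FPKM was 44.2, 51.9 and 50.5 in CT and 79.8, 145 and 188 in EL+HS. The same sum was 85.7 to 146 in EL and 72.3 to 96.3 in HS. CASP1, a membrane protein of the root endodermis, was at 17.9, 20.8 and 16.3 FPKM in CT and 26.7, 57.8 and 65.5 FPKM in EL+HS (log2 change 1.31 ± 0.24, adjusted p 0.000401). 2 of 4 guard cell markers were lower (1 without CT replicate 1 or EL+HS replicate 1), and their sum was 40.1 to 43.3 in CT and 27.9 to 31.6 in EL+HS. Seed storage markers summed to 2.3, 6.44 and 115 FPKM in CT and to between 1.89 and 3.94 in EL+HS, so CT replicate 3 stood apart, with 0 calls among 4 tested. The part of these organ differences in the gene groups above, among them root-expressed aquaporins, ADH1 and the light-harvesting genes, was not tested.

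The EL libraries were unequal for heat-responsive genes: HSP18.2 was at 3.16, 26.1 and 145 FPKM, HSP17.6II at 244, 482 and 1522 FPKM and GOLS1 at 64.1, 167 and 526 FPKM, with replicate 3 highest each time. 11 of the 16 small heat shock proteins were above EL, and 0 differed from HS. HSP18.2 was above EL in every library (log2 difference 7.37 ± 0.90, adjusted p 9.53e-05), and its HS libraries of 4436, 4185 and 1639.6 FPKM overlapped those of EL+HS. The counts of genes that differed from a single stress varied with the libraries used. A fit on the 6 libraries of a comparison alone gave 101 against EL and 1181 against HS. With 1 library left out they ranged from 534 without EL replicate 1 to 2896 without EL replicate 3, and from 1725 without HS replicate 3 to 4879 without HS replicate 1. The differences from EL given above for TT4, MYB12 and RD29A were not called in the fit on the compared libraries alone.

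57 genes were above both EL and HS and 134 below both, of which 50 were also above CT and 118 also below CT. The split turned with the scaling, to 85 above and 69 below after rescaling, and with only the compared libraries it was 12 and 1. Leaving out 1 library at a time gave 25 to 107 above and 34 to 341 below, with the highest numbers without EL replicate 3 and the lowest without HS replicate 3 (above) or EL replicate 1 (below). The genes furthest above both were mostly mitochondrial. Overlap with other genes was not checked for these mitochondrial loci, which were missing from the annotation used. ATMG00630 was listed at 0 in CT, at 0, 0.975 and 2.33 FPKM in EL, at 24.5, 13 and 0 FPKM in HS and at 31.9, 55.2 and 55.9 FPKM in EL+HS (adjusted p 0.00302 against EL and 0.0341 against HS). ATMG00620 was at 4.92, 4.98 and 0.755 FPKM in CT, 2.89, 2.48 and 19 in EL, 53.3, 25.6 and 21.8 in HS and 84.7, 126 and 178 in EL+HS. Their differences from HS (2.73 and 1.96) were lost without EL+HS replicate 2 or 3 or without HS replicate 3, and that of ATMG00620 also without HS replicate 2. Both were lost as well with a pseudocount of 0.1 and without the filter on low FPKM. That of ATMG00630 was also lost on the compared libraries alone. The nuclear AT2G07701 was listed at 0 in CT and at 11, 34.2 and 45.5 FPKM in EL+HS, against 4.8, 1.47 and 4.35 FPKM in HS (log2 difference 2.67 ± 0.43, adjusted p 0.000428). AT2G07701 lies on chromosome 2, and all 321 bases of it are identical to the mitochondrial genome in TAIR10.1, so its reads may come from either place.

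Those furthest below both were of several kinds. AT1G54010, a lipase-like gene of the GDSL family, was at 204, 141 and 129 FPKM in EL, 139, 153 and 231 in HS and 102, 90 and 75.9 in EL+HS (log2 difference -0.80 ± 0.22, adjusted p 0.0335 against EL and log2 difference -0.93 ± 0.22, adjusted p 0.00766 against HS). The difference from EL was lost without EL replicate 1 or 2 or EL+HS replicate 2 or 3, and that from HS without HS replicate 3. The former was also lost without the filter on low FPKM and on the compared libraries alone. LOX2, given above, belonged here too. The transporter gene AT5G17700 (MATE family), AT5G63000 (of the Tim17 family) and AT2G42080 (a DNAJ protein) lay below EL by 1.07, 0.95 and 0.87 and below HS by 0.96, 0.83 and 0.86. Each of these 3 lost its difference from EL without EL replicate 1 and its difference from HS without HS replicate 3. Both differences of each were also lost in fits on the compared libraries alone. AT5G17700 and AT5G63000 lost both without EL+HS replicate 2, AT2G42080 lost both without EL+HS replicate 3, and AT2G42080 lost that from HS without HS replicate 2.

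Mitochondrion-encoded loci as a whole were then counted, after these values had been seen. They encode subunits of the respiratory chain, ribosomal proteins, RNAs and open reading frames of unknown function. Of 152 loci in the files 76 passed the filter, and 61 of these rose and 0 fell (median 1.67). Their summed FPKM was 81.9, 99.9 and 77.8 in CT and 844, 1035 and 997 in EL+HS, while EL held 118, 149 and 262 and HS 673, 1610 and 303. The high HS library rested on 1 locus, ATMG01380, singled out after its values were seen, which was at 0, 1172 and 0 FPKM in HS and at 0 in every CT, EL and EL+HS library of WT. Without it the HS sums were 673, 438 and 303, below every EL+HS library. 43 loci were higher in EL+HS than in EL, and 24 were higher and 1 lower than in HS. Plastid-encoded loci did not show this, with 0 of 62 higher and 8 lower, the latter below the 19.4% of all genes. All organelle loci together held only 0.0802 to 0.12% of the summed FPKM in CT and 0.191 to 0.237% in EL+HS. How RNA was selected before sequencing could not be checked, and its part in these values was not tested. ATMG00430 and ATMG01150 had the same values in each of these WT libraries, so not all loci are separate measurements. Nuclear copies of the mitochondrion-encoded loci were not searched for.

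The EL+HS response was measured a second time in the libraries labelled rap2.3, which have their own CT libraries. There 8621 of 20592 genes differed between EL+HS and CT (41.9%), 2277 higher (11.1%) and 6344 lower (30.8%), or 3680 and 3857 after rescaling. Of the 20339 genes tested in both, 4995 were called in the same direction in both, which is 77.3% of the 6465 WT calls and 58.2% of the 8576 calls labelled rap2.3. 2 were called in opposite directions. Of the genes that rose in WT 67.2% also rose there, against 11.1% of all genes tested in both, and of those that fell 83.5% also fell, against 31.1%. Across genes, which are not independent replicates, the changes correlated at r = 0.851 (Pearson) and rho = 0.767 (Spearman).

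AT1G53540 was at 2.07, 1.36 and 0.791 FPKM in CT and 8729, 7543 and 5248 FPKM in EL+HS libraries labelled rap2.3, a change of 11.55 against 10.94 in WT. LHCB1.1 changed by -1.16 there and by -1.0 in WT, and CYCB1;2 by -2.49 and -1.30. The summed FPKM of mitochondrial loci was 98.6, 117 and 97.8 in CT and 1433, 2277 and 2392 in EL+HS. ATMG01380 was at 0, 863 and 820.5 FPKM in the latter, and without it the sums were 1433, 1415 and 1572. A test of the difference between the 2 responses over all 48 libraries called 0 of 21322 genes with limma, while 1958 had an unadjusted p under 0.05, so none of these pairs of values is shown to differ by it. The 2 genotypes come from separate tables, and genotype and table cannot be told apart.

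**Figure D5:**
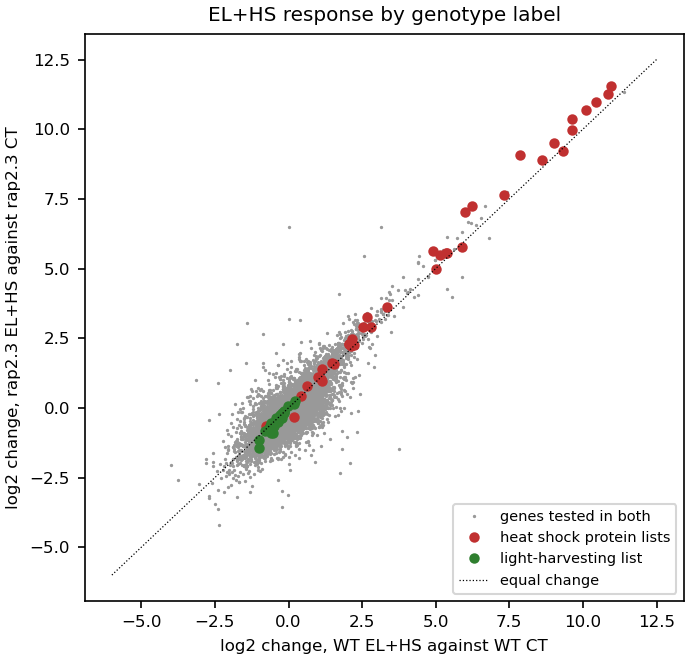
Each grey point is 1 gene tested in both genotypes, placed at its log2 change between EL+HS and CT in WT (horizontal) and in the libraries labelled rap2.3 (vertical). Heat shock proteins (red) reach changes above 10 on both axes and light-harvesting genes (green) lie at or below about 0 on both, along the dotted line of equal change.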

How the data were processed

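RNA-seq was done on 48 libraries of whole seedlings, 3 in each of 16 groups. Values are FPKM per locus as deposited by the authors, in 1 table per genotype. The submitters' processing notes name HISAT2, Cufflinks and the genome build TAIR10. Their versions, the use of strand and the gene annotation are not given in the sources used here, so overlapping genes may share reads. Cufflinks can divide reads among near-identical genes.

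Genes with at least 1 FPKM in at least 3 libraries of a fit were tested with limma 3.58.1 in R 4.3.3 (linear model per gene, eBayes with a trend, Benjamini-Hochberg adjustment over all genes tested) on log2(FPKM + 1). The WT fit used the 24 WT libraries (16 residual degrees of freedom), and the genotype difference used all 48 (32 residual degrees of freedom). The fits were tested on simulated data. Promoter windows and gene names came from RefSeq TAIR10.1, in which 32539 of 32824 loci were found. Plots used matplotlib 3.10.9 (Python 3.11.15). FPKM keep no absolute depth, so its effect on low genes could not be measured.

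Named genes were the 10 largest called increases and decreases among genes that overlap no other gene, the 5 furthest above and below both single stresses, and up to 4 called members of each list with a mean of at least 5 FPKM in the higher group, plus heads, regulators and rate-limiting enzymes of pathways. A call needed an adjusted p under 0.05. Members and lists were chosen with earlier results of these data known.

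Each result was recomputed after rescaling by median-of-ratios size factors, with 0.1 as pseudocount, without the filter, with the replicate number as a block, on the libraries of a comparison alone, and without each library of the comparison. The labels give no batch. Nothing states that the repeats were grown apart, so p-values measure the spread between these libraries.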

Additional observations from a re-analysis of the deposited data

How the results depend on the processing

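The count of genes that differed between EL+HS and CT, 6499, stayed within 1.5 times under all 11 alternatives (from 4981 with only the compared libraries to 6640 with a pseudocount of 0.1), and without 1 library each it was 5102 to 5958. The count against EL was 101 with only the compared libraries and 534 to 2896 without 1 library each. The count against HS was 1181 with only the compared libraries and 1725 to 4879 without 1 library each. The count above both single stresses, 57, was 25 with a pseudocount of 0.1, 12 with only the compared libraries and 25 to 107 without 1 library each. The count below both, 134, was 69 after rescaling, 1 with only the compared libraries and 34 to 341 without 1 library each. These recounts, and the mitochondrial sums without ATMG01380, were chosen after seeing the data. The count in the libraries labelled rap2.3, 8621, was 7068 to 7652 without 1 library each, and the test of the difference between genotypes called 0 to 3 genes. The cause of these shifts was not tested.

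Replicate numbers did not pair the CT and EL+HS libraries of WT: deviations from the group means of same-numbered libraries correlated at -0.093, 0.037 and 0.019. In the other pairs of groups examined these correlations lay between -0.091 and 0.138. With the replicate number as a block the counts were 6294 against CT, 1541 against EL, 3682 against HS and 8430 in the libraries labelled rap2.3. Of 119 named genes called against CT, 96 were called in all 11 alternatives. Each single alternative ended between 1 and 15 of the calls and reversed 0. Losses of single genes with settings other than rescaling or a left-out library are not all listed above. Depth is not given by FPKM, and genes listed near 0 in CT have no measured fold.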

Other observations

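Some families, counted after their values were seen and named by their annotation, are not described above. Of 51 tested genes annotated as peroxidase superfamily proteins, a label that takes in the alpha-dioxygenase gene DOX1, 21 rose and 4 fell under EL+HS in WT (22 rose and 1 fell under EL, 7 and 4 under HS). In the libraries labelled rap2.3, 5 of 49 rose and 7 fell, and the difference between the genotypes was not tested for the family. Of all genes there 11.1% were higher and 30.8% lower, so the share that rose was near and the share that fell below. The summed FPKM of the family was 2775, 1678 and 1712 in WT CT and 1721, 1938 and 2700.3 in WT EL+HS, so the groups overlapped. Summed FPKM of the root markers was 44.2, 51.9 and 50.5 in WT CT and 79.8, 145 and 188 in WT EL+HS. Whether the peroxidase family follows the root markers was not tested.

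Disease resistance genes of the TIR-NBS-LRR class fell in 16 of 43 cases and rose in 2 (9 and 2 after rescaling). Of 14 tested microtubule motor genes 7 fell and 1 rose. SAUR genes, which respond to auxin, rose in 5 and fell in 1 of 61 cases, both below the shares of all genes (12% higher and 19.4% lower).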
